A study of Mus musculus with 6 samples.

Results

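Imprinted genes are expressed only or mainly from the maternal or from the paternal chromosome, in some or in all tissues. Here 50 of them, grouped by hand into 18 imprinted loci, were examined for methylated DNA in mouse erythroblasts. The 50 genes are a named list, matched by symbol among the 49943 genes that RefSeq places on GRCm38.p6 (the coordinates of mm10), and all 50 were found. A peak was assigned to a gene when it overlapped the gene body, or the 10 kb on either side of it, by at least 1 bp. In all, 29 of the 12963 listed peaks were assigned in this way, and they merged into 24 distinct regions.

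The cells were I/11, an erythroblast line from the fetal liver of p53-deficient mice at E12.5 of embryonic development, so the loss of p53 is common to every group. They had been infected with lentivirus carrying hairpin 133 or hairpin 14 directed at Plcg1, which encodes phospholipase C gamma 1, and selected with puromycin at 1 µg/ml for 48 h. Cells were taken 72 h after infection (0 h of differentiation) or 96 h after it, the last 24 h of them in differentiation medium that held erythropoietin (Epo, 10 U/ml) and holo-transferrin. Up to 0 h all cells had grown with less Epo, stem cell factor (SCF) and dexamethasone, which keep erythroid progenitors dividing. Methylated fragments were captured with MBD2-Fc, a methyl-CpG binding domain fused to an antibody tail, which selects methylated CpG-rich DNA. There are 6 libraries, of which the 4 with a hairpin to Plcg1 gave the peaks described here. The scrambled hairpin libraries were not analysed here.

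Each group is 1 library, so no difference between lists has a replicate check and none was tested. The lists carry no score and no direction: a peak is a region listed for a library, and the sources used here do not give whether it held more or less methylated DNA than a control. Peak lists measure no transcript, so the erythroblast identity of the cells and the knockdown could not be checked from them. With hairpin 133 the lists held 3900 peaks at 0 h and 2960 at 24 h, and with hairpin 14 they held 3437 and 2666.

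Imprinting rests on control regions whose DNA is methylated on the maternal or the paternal chromosome in the germ cells and stays so in the body. Such a region acts on a cluster of genes, through a noncoding RNA, an insulator or a promoter, and the proteins ZFP57 and TRIM28 protect its methylation in the early embryo. Capture sequencing does not tell the parental chromosomes apart, so a peak at an imprinted gene does not say which copy was methylated.

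Peaks lay at 11 of the 18 loci and at 16 of the 50 genes. The Dlk1-Dio3 locus held 9 peaks, Trappc9-Peg13-Kcnk9 held 6, Kcnq1 held 5 and Grb10 held 2. Peg3, Snrpn, Mest, Peg10-Sgce, Plagl1, Impact and Rasgrf1 held 1 each. No peak lay at Igf2-H19, Igf2r-Airn, Zrsr1-Commd1, Nnat-Blcap, Mcts2-H13, Gnas or Inpp5f, loci with 12 genes in all. Dlk1-Dio3 was the only locus of the 18 with a peak in every list.

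**Figure D1:**
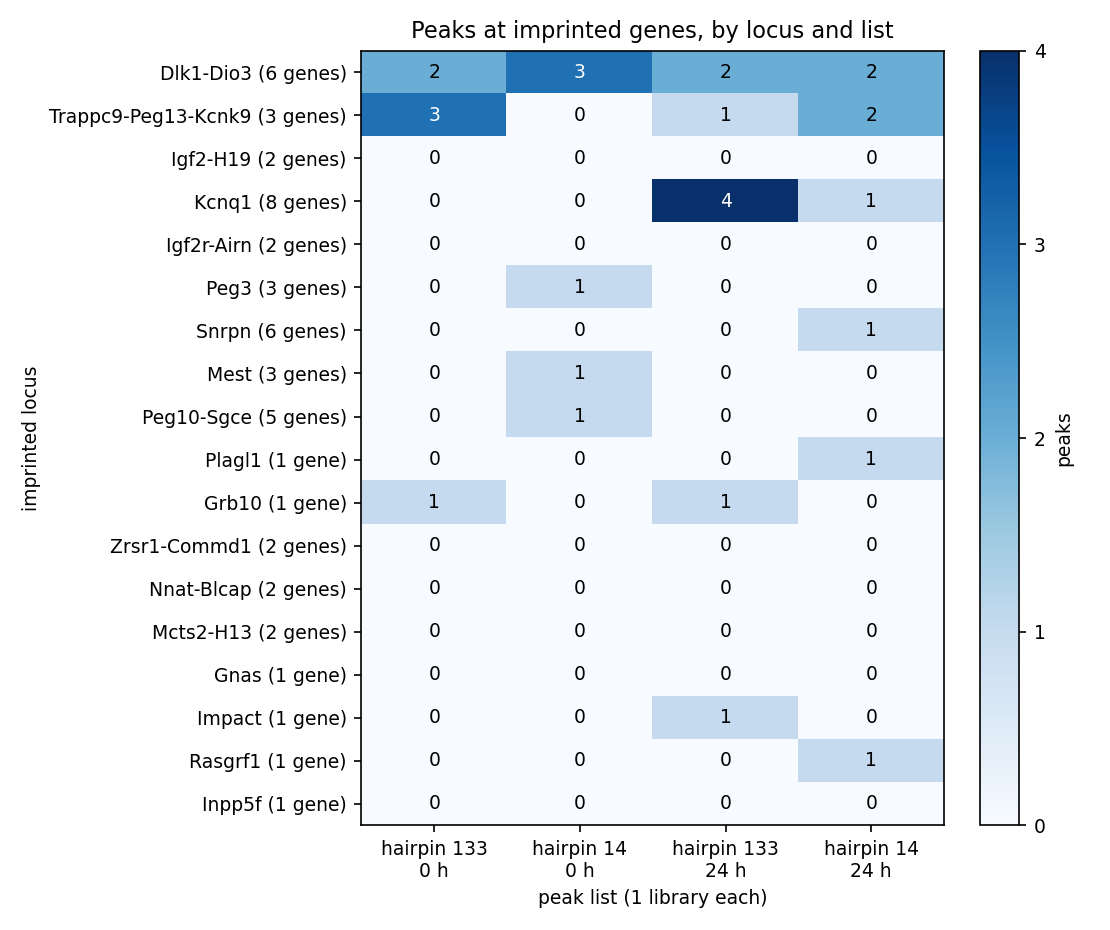
Number of peaks at each imprinted locus (rows, with the number of its genes) in each of the 4 peak lists (columns), 1 library a column; darker cells hold more peaks. Dlk1-Dio3 has 2 or 3 peaks in every list, Kcnq1 has 4 and 1 at 24 h and none at 0 h, and 7 loci have none.

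With hairpin 133 at 0 h, 5 of the 50 genes had a peak, beside 8.47% of all RefSeq genes, and with hairpin 14 at 0 h 7 had, beside 7.6%. At 24 h the counts were 9 with hairpin 133, beside 7.09% of all genes, and 8 with hairpin 14, beside 6.43%. As shares of the 50 these are 10%, 14%, 18% and 16%. Most of the 50 code for protein, and protein-coding genes had a peak more often than all genes: with hairpin 133 12.7% at 0 h and 10.5% at 24 h, and with hairpin 14 11.0% and 9.72%. Among the 43 protein-coding imprinted genes 3, 4, 6 and 6 had a peak in the same order of lists, which is 6.98%, 9.30%, 14.0% and 14.0%. These genes have a median length of 26.6 kb against 17.2 kb for all protein-coding genes, and a longer gene has a wider window. Over any list, 16 of the 50 (32.0%) had a peak, beside 18.4% of all RefSeq genes, and 12 of the 43 coding genes (27.9%), beside 26.0% of protein-coding genes, so the share of the coding genes was near the background.

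Counted as peaks rather than genes, the imprinted genes held 6 peaks with each hairpin at 0 h, and 9 and 8 at 24 h with hairpins 133 and 14. These were 0.154% of the list with hairpin 133 at 0 h (exact binomial 95% interval 0.0565 to 0.335%) and 0.175% with hairpin 14 (0.0641 to 0.380%). At 24 h they were 0.304% with hairpin 133 (0.139 to 0.576%) and 0.30% with hairpin 14 (0.130 to 0.590%). The intervals of 0 h and 24 h overlap for both hairpins, and they cover counting error only. Both 0 h lists together went from 7337 peaks to 5626 at 24 h, while those at imprinted genes went from 12 to 17. At the Kcnq1 locus they went from 0 to 5, of which 4 were with hairpin 133. Some of the other loci gained peaks and others lost them, so the rise is not a trait seen across the loci.

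Per Mb of merged gene windows, the imprinted genes held 1.49 peaks in each 0 h list, 2.23 with hairpin 133 at 24 h and 1.98 with hairpin 14 at 24 h. All RefSeq genes held 1.95, 1.70, 1.52 and 1.38 peaks per Mb in the order hairpin 133 and 14 at 0 h, then at 24 h. The imprinted genes were thus at 0.762 and 0.873 times the density of all genes at 0 h and at 1.47 and 1.43 times at 24 h. Without the 6 genes of Dlk1-Dio3, the ratios were 0.539, 0.463, 1.21 and 1.14. In every list the Poisson 95% interval of the imprinted genes held the density of all genes, with or without Dlk1-Dio3, so at these counts a difference from all genes was not detectable.

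**Figure D2:**
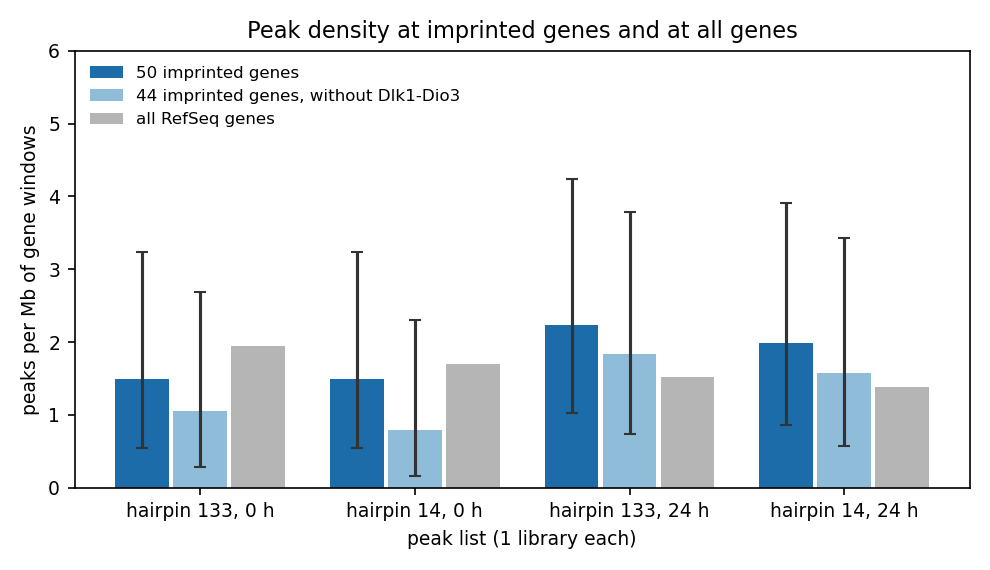
Peaks per Mb of merged gene windows (gene body and 10 kb on each side) for the 50 imprinted genes, for the 44 outside Dlk1-Dio3 and for all RefSeq genes, in each of the 4 lists; error bars are exact Poisson 95% intervals of the count and cover counting error only. The 50 genes run from 1.49 to 2.23 peaks per Mb and each interval holds the grey bar of its list.

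Peaks at both times were found at 6 of the 50 genes (12%), beside 4.66% of all RefSeq genes. Peaks at 0 h only were found at 3 (6%), beside 7.63%, and at 24 h only at 7 (14%), beside 6.06%. Of the 43 coding genes, 3 had peaks at both times (6.98%), beside 7.57% of protein-coding genes. At 0 h only it was 3 (6.98%), beside 10.3%, and at 24 h only 6 (14.0%), beside 8.14%. The windows of Meg3, Rtl1 and Rian overlap, so these genes share peaks and are not separate counts. Genes with a peak at 0 h only were Zim1, Klf14 and Sgce. Genes with a peak at 24 h only were Kcnq1, Kcnq1ot1, Ascl2, Snrpn, Plagl1, Impact and Rasgrf1. The other genes with a peak were Meg3, Rtl1, Rian, Mirg, Trappc9 and Grb10, at both times.

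The Dlk1-Dio3 locus on chromosome 12 holds protein genes expressed from the paternal chromosome (Dlk1, a Notch-like ligand, Rtl1, a retrotransposon-derived gene needed in the placenta, and Dio3, the enzyme that inactivates thyroid hormone) and noncoding genes expressed from the maternal one (Meg3, Rian and Mirg, which host snoRNAs and microRNAs). Peaks lay at Meg3, Rtl1, Rian and Mirg. No peak lay within 10 kb of Dlk1 or Dio3. The windows of neighbouring genes overlap here, so a peak can count for 2 genes, and the locus total counts it once.

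Meg3 (chr12:109540996-109571729) had 1 peak with hairpin 133 at 0 h, 1 with hairpin 14 at 0 h, 1 with hairpin 133 at 24 h and 0 with hairpin 14 at 24 h. These were 3 separate positions. The peak of hairpin 133 at 0 h, chr12:109540771-109540921, lay just before the Meg3 start, with its centre 150 bp upstream, in the promoter that is known to carry a methylation imprint of its own. It was not listed with hairpin 14 or at 24 h. The 151 bases of this peak are given below because they are the promoter stretch listed at this locus, on the plus strand of GRCm38.p6 from RefSeq, 5′ to 3′, with CpG dinucleotides in capitals.
Meg3 promoter peak: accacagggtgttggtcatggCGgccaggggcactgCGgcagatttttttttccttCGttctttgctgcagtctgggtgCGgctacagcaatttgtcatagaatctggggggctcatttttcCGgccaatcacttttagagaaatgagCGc

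This stretch runs from base -225 to base -75 relative to the Meg3 start and holds 6 CpG, with 51.7% G and C. ZFP57 recognises the methylated hexamer TGCCGC. Both strands were searched for it, and the stretch holds 1 match, on the other strand, where it reads GCGGCA from base 36 on. Among 32619 promoter windows of 300 bases in the table (250 before to 50 after a start), 11.7% hold the hexamer on either strand, and 17.3% of the 479 windows overlapped by a peak do. Such a window exists for 39 of the 50 imprinted genes, 56 windows in all, of which 13 (23.2%) hold it. These windows have a median of 15.5 CpG against 7 in all windows, and the hexamer itself holds a CpG. Some of them overlap each other, as at Mest. The part of either in this share was not tested. The match in the Meg3 stretch is a description of the letters and not a measured binding site.

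The peak of hairpin 14 at 0 h in Meg3, chr12:109563604-109563754, lay 18.3 kb downstream of the nearest listed Meg3 start and over the Mir770 hairpin, a microRNA hosted by Meg3. It covered 63 of the 94 bases of the hairpin. In Mirg (chr12:109734981-109749458), the peak of hairpin 14 at 24 h, chr12:109743311-109743461, covered 58 of the 80 bases of the Mir412 hairpin and 44 of the 79 of Mir369. These were 3 of the 58 microRNA hairpins that the table lists between the outer ends of Dlk1 and Dio3. Each of the 2 peaks was in 1 list only. The 5 mature microRNAs lying at least partly under a peak are given from RefSeq, with the seed (bases 2 to 8) in capitals, to show which products of the cluster these positions encode. They carry 5 different seeds.
miR-770-5p: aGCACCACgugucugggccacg
miR-770-3p: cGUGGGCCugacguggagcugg
miR-412-5p: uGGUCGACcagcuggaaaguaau
miR-412-3p: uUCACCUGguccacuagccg
miR-369-5p: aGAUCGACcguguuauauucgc

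The hairpin genes Mir770, Mir412 and Mir369 hold 6, 4 and 4 CpG. The listing of a position over them says nothing on the level of these microRNAs, which was not measured.

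Rtl1 (chr12:109564900-109604418) was the only one of the 50 genes with a peak in all 4 lists, with 1 peak with hairpin 133 at 0 h, 2 with hairpin 14 at 0 h and 1 with each hairpin at 24 h. The same 151 bp, chr12:109599410-109599560, were listed with both hairpins at 0 h and with hairpin 14 at 24 h, at identical start and end. This position lay in the RefSeq body of Rtl1 and 4.46 kb upstream of the start of Rian (chr12:109603945-109661716), so it also counted for Rian, which had 1 peak in each of these 3 lists. Among the regions at the 50 genes it was the only one listed 3 times. In the list of hairpin 133 at 24 h Rtl1 had another peak, chr12:109576665-109576815, which is within 10 kb of the end of Meg3 too.

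Mirg had 0 peaks with hairpin 133 at 0 h and 1 in each of the other lists. Upstream of its start, peaks of hairpin 14 at 0 h and hairpin 133 at 24 h lay at nearly the same place, 9 bp apart, and together covered chr12:109730357-109730516, about 4.5 kb before the start. These lists differ in both hairpin and time.

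**Figure D3:**
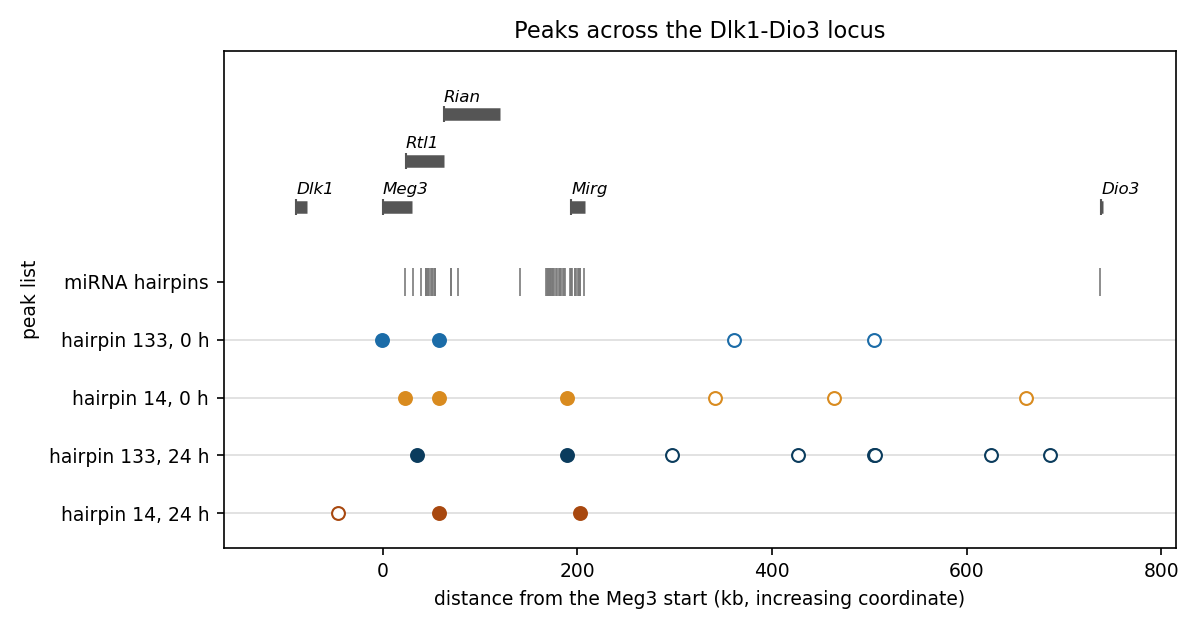
Peaks across the Dlk1-Dio3 locus, with distance from the Meg3 start in kb on the horizontal axis, gene bodies as bars, the start of each of the 58 microRNA hairpins as a tick and each peak as a circle in the row of its list. Filled circles are within 10 kb of an imprinted gene and open circles are not; the circle near 505 kb of hairpin 133 at 24 h stands for 2 peaks.

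The density of peaks at Dlk1-Dio3 stood above that of all gene windows on its chromosome, and so did that of its surroundings. Its gene windows, with 9 peaks in 6 regions, held 9.87 peaks per list and Mb, or 4.10 times the 2.41 of all gene windows on chromosome 12. In single lists this was 2 or 3 peaks. The Poisson 95% interval of the locus held the density of all RefSeq genes in 3 of the 4 lists (1.06 to 31.7 peaks per Mb). With hairpin 14 at 0 h it did not (2.71 to 38.5). Dlk1-Dio3 held the most peaks of all the loci, and the intervals make no allowance for that choice. Over the whole span of the locus (10 kb before Dlk1 to 10 kb after Dio3, 0.849 Mb) the lists held 4, 6, 8 and 3 peaks in the order hairpin 133 and 14 at 0 h, then at 24 h, or 6.19 per list and Mb. The 1 Mb just before the span held 6.0 and the 1 Mb just after it 4.25, against 1.80 over the chromosome. The stretch between the windows of Mirg and Dio3, 0.510 Mb with no gene of the list, held 2, 3, 6 and 0 peaks in the same order of lists. Within it, hairpin 133 alone had the same region at both times, offset by 5 bp.

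The Kcnq1 locus on chromosome 7 is controlled from the promoter of Kcnq1ot1, a long noncoding RNA that is made from the paternal chromosome and silences its neighbours there. Maternally expressed genes of the locus include Kcnq1, a potassium channel gene, Cdkn1c, an inhibitor of cyclin-dependent kinases, Phlda2, a brake on placental growth, Slc22a18, a transporter gene, and Ascl2, a transcription factor of the placenta and of intestinal stem cells. Neither 0 h list had a peak at any of its 8 genes, nor anywhere between 10 kb before Ascl2 and 10 kb after Phlda2. At 24 h there were 4 peaks with hairpin 133 and 1 with hairpin 14. Without the library of hairpin 133 at 24 h the locus would have 1 peak.

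Ascl2 (chr7:142966822-142969264) had 1 peak, with hairpin 133 at 24 h, and 0 in the other lists. That peak, chr7:142969301-142969451, lay across the Ascl2 promoter with its centre 112 bp before the start. Its 151 bases are given because, beside that at Meg3, it is the peak that overlapped a promoter window of an imprinted gene. They are on the minus strand of GRCm38.p6 from RefSeq, 5′ to 3′, with CpG in capitals.
Ascl2 promoter peak: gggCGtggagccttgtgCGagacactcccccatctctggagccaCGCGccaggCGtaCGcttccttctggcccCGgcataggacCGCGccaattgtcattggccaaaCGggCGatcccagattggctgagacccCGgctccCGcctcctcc

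The stretch runs from base -187 to base -37 relative to the start and holds 13 CpG, with 66.9% G and C, and 0 matches of TGCCGC on either strand. Per base it holds more CpG than the Meg3 stretch, which has 6 over the same length. In the 300-base windows, the Ascl2 promoter has 23 CpG, more than 78.3% of all windows, and the Meg3 promoter 13, more than 61.8%. Windows overlapped by a peak of any list have a median of 17 CpG (quartiles 11 to 26), and all windows have a median of 7 (3 to 20). A peak overlapped 2 of the 56 promoter windows of imprinted genes (3.57%), these ones of Meg3 and Ascl2, and 1.47% of all windows. Kcnq1 and Klf14, each with a peak near a gene end, have no such window and are not in this count. The windows of Grb10, Gnas, Ppp1r9a and Igf2r with the most CpG had 45, 40, 48 and 34, and no peak overlapped any of them.

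Kcnq1 (chr7:143106877-143427050) had 3 peaks with hairpin 133 at 24 h, 1 with hairpin 14 at 24 h and 0 in either 0 h list. At chr7:143107256-143107406, near the lower-coordinate end of the gene and 454 bp from it, both hairpins were listed at 24 h with identical start and end. Among the regions at the 50 genes it was the only one listed with both hairpins at 24 h. Kcnq1 has no promoter window here, so this peak was not placed relative to a start. A second peak of hairpin 133, chr7:143265483-143265633, lay inside both Kcnq1 and Kcnq1ot1 (chr7:143213111-143296547), 31.0 kb into the noncoding gene and away from its promoter. The third, chr7:143428314-143428464, lay 1.26 kb beyond the higher-coordinate end of Kcnq1. Cdkn1c, Phlda2, Slc22a18, Tssc4 and Cd81 had no peak, and the nearest ones were 29.9, 73.1, 45.3, 36.2 and 39.3 kb away, with hairpin 133 at 24 h. For Tssc4 and Cd81 that peak was the one at the lower-coordinate end of Kcnq1, which hairpin 14 shared at 24 h.

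**Figure D4:**
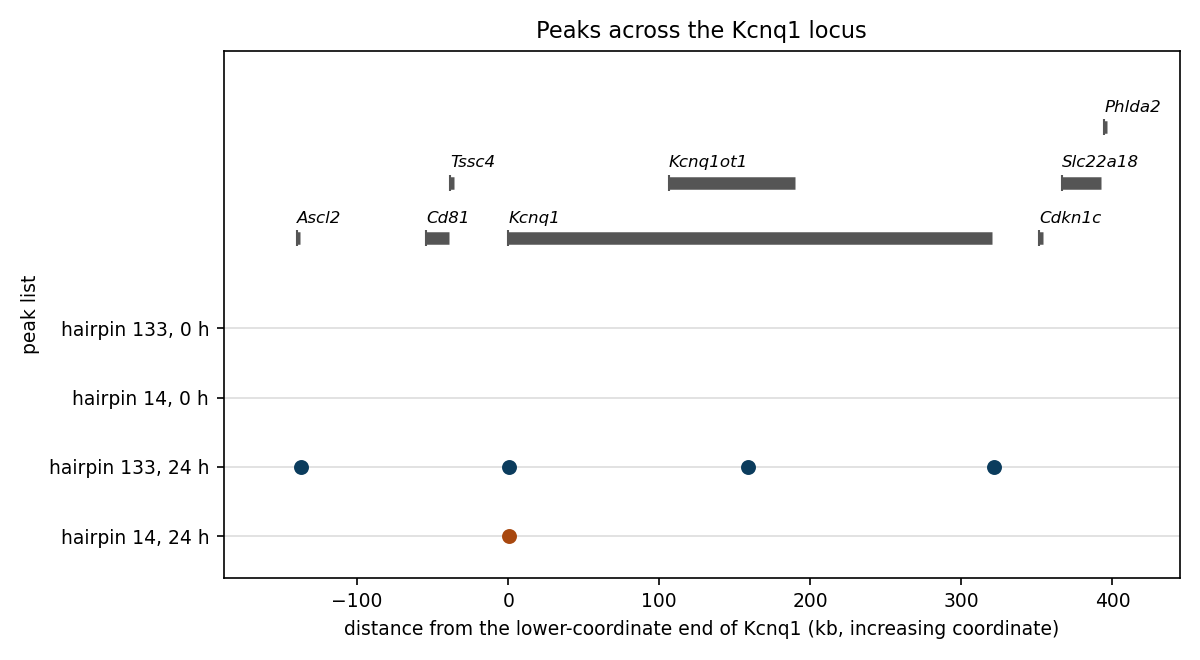
Peaks across the Kcnq1 locus, with distance from the lower-coordinate end of Kcnq1 in kb on the horizontal axis, gene bodies as bars and each peak as a circle in the row of its list. The rows of 0 h are empty, hairpin 133 has 4 peaks at 24 h, and the only peak of hairpin 14 shares its position with one of them.

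At Trappc9-Peg13-Kcnk9 on chromosome 15, all peaks lay in Trappc9 (chr15:72589620-73061238), the gene of a vesicle transport subunit that is 472 kb long. It had 3 peaks with hairpin 133 at 0 h, 0 with hairpin 14 at 0 h, 1 with hairpin 133 at 24 h and 2 with hairpin 14 at 24 h. The 6 peaks were 6 separate regions, each in 1 list. Peg13, the paternally expressed noncoding RNA whose promoter carries the imprint of this locus, lies inside Trappc9, and its nearest peak was 46.2 kb away. Kcnk9, a potassium channel gene, had its nearest peak at 62.5 kb. In gene windows the locus held 2.69 peaks per list and Mb, against 1.78 over all gene windows of the chromosome.

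**Figure D5:**
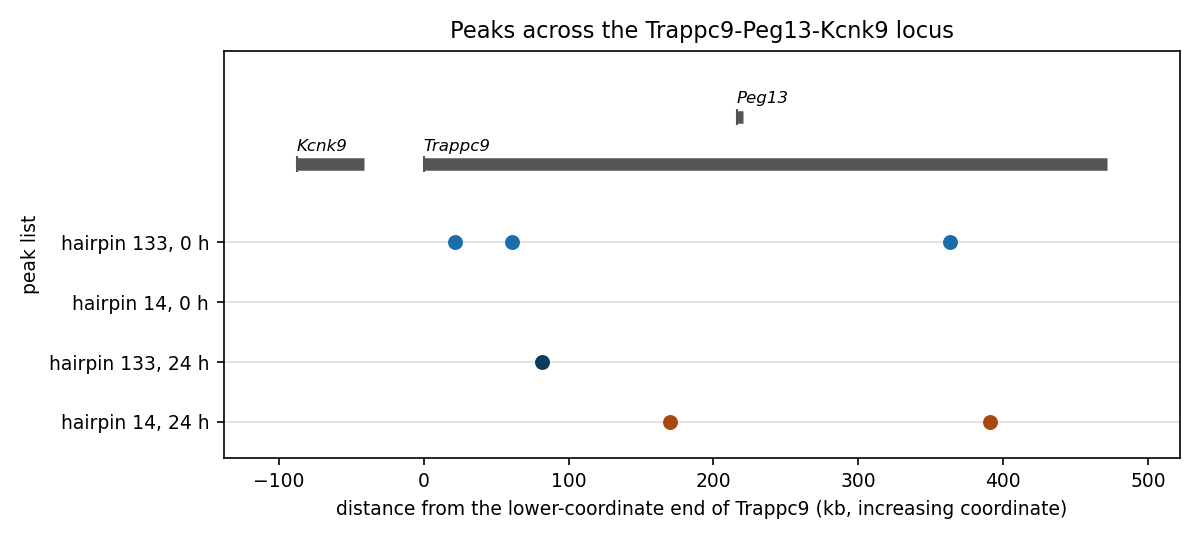
Peaks across the Trappc9-Peg13-Kcnk9 locus, with distance from the lower-coordinate end of Trappc9 in kb on the horizontal axis, gene bodies as bars and each peak as a circle in the row of its list. The 6 peaks lie at 6 positions along Trappc9, none of them at Peg13 or Kcnk9.

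Grb10 on chromosome 11 (chr11:11930499-12037428) encodes an adaptor that dampens insulin and growth factor receptor signalling, and is expressed from the maternal chromosome in most tissues. It had 1 peak with hairpin 133 at 0 h, 0 with hairpin 14 at 0 h, 1 with hairpin 133 at 24 h and 0 with hairpin 14 at 24 h. The peaks overlapped, 61 bp apart, over chr11:12036434-12036645. The centre was 850 bp downstream of the upstream start of Grb10 at 0 h and 911 bp downstream of it at 24 h, which is base -8599 and base -8538 relative to the other listed start. Among the regions at the 50 genes, this one and the one at Rtl1 and Rian, with hairpin 14, were listed at both times with the same hairpin.

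The loci with 1 peak had it in 1 list each. With hairpin 14 at 0 h, peaks lay in Zim1 (chr7:6692793-6692943), a maternally expressed zinc finger gene next to Peg3, in Sgce (chr6:4693734-4693884), the epsilon sarcoglycan gene, and at an end of Klf14 (chr6:30958944-30959094), a maternally expressed Krüppel-like factor gene near Mest. Peg3 itself is the paternally expressed zinc finger gene that carries the control region. The peak in Zim1 lay 10.9 kb from the end of Peg3 that is opposite its start. Usp29, whose listed start lies beside that of Peg3, was 37.6 kb from the same peak. With hairpin 14 at 24 h, peaks lay in Snrpn (chr7:60243748-60243898), a gene of 468 kb for a splicing protein, and also inside the noncoding Snhg14, and in Rasgrf1 (chr9:89970336-89970486), a Ras exchange factor gene, 60.6 kb into it. A further peak of this list lay 8196 bp upstream of the start of Plagl1 (chr10:13082561-13082711), a growth-restraining zinc finger gene, in a stretch that a predicted noncoding gene covers. With hairpin 133 at 24 h, a peak lay in Impact (chr18:12979682-12979832), a regulator of the GCN2 kinase. Ndn, Magel2, Mkrn3, Peg12 and Ube3a of the Snrpn locus, Mest and Copg2, and Peg10, Ppp1r9a, Calcr and Asb4 had none.

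Of the 29 peaks, 23 overlapped the body of an imprinted gene and 6 lay in the flanking 10 kb only. Centres within 1 kb of either end of an imprinted gene were found for 7, those at Meg3, Ascl2, Klf14, Kcnq1 (2 lists) and Grb10 (2 lists). Exons and introns could not be told apart, as the gene table holds neither. Among the peaks of the flanks, the one farthest inside the limit was that at Plagl1, 8.12 kb from the gene. Just outside the limit, peaks of hairpin 14 at 24 h and hairpin 133 at 0 h lay 10.2 kb below Dlk1. The 34 genes with no peak had their nearest one 10.2 to 933 kb away, with a median of 55.2 kb.

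Few of the positions recurred, with a share in 1 list near that of the whole series. Of the 24 regions, 20 (83.3%) came from 1 list, 3 from 2 lists and 1 from 3, and over all 10085 regions of the series 79.2% came from 1 list. With both hairpins at 0 h, 1 of 6 peaks was in common (16.7% of each list's peaks at imprinted genes), beside 30.9% of all peaks of hairpin 133 and 35.1% of those of hairpin 14. At 24 h, 1 of 9 (11.1%) of hairpin 133 and 1 of 8 of hairpin 14 were in common, beside 25.2% and 27.9% of all peaks. Each of these shares at imprinted genes rests on 1 region. Between times, 1 region was in common with hairpin 133 (at Grb10) and 1 with hairpin 14 (at Rtl1 and Rian). For hairpin 133 that is 16.7% of the 0 h peaks and 11.1% of the 24 h peaks at imprinted genes, beside 13.1% and 17.2% of all peaks. For hairpin 14 it is 1 of 6 and 1 of 8, beside 13.9% and 17.97% of all peaks, so the shares were near those of the whole lists. In genes, regions listed with both hairpins touched 2 of the 50 at 0 h (Rtl1 and Rian), beside 3.06% of all RefSeq genes, and 1 at 24 h (Kcnq1), beside 2.15%. Of the 43 coding genes it was 1 at each time (2.33%), beside 4.61% of protein-coding genes at 0 h and 3.38% at 24 h. The regions of both hairpins at the same time, at Rtl1 and Rian and at Kcnq1, had identical start and end. Whether the peaks of both hairpins were called against a common control is not given, and its part in these overlaps was not tested.

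Other imprinted genes and the proteins that keep imprints gave a further view. Of 41 other imprinted genes, hairpin 133 gave 7 with a peak at 0 h and 2 at 24 h, and hairpin 14 gave 9 and 7, making 14 over any list (34.1%). Of the 38 coding genes among them 14 had a peak in any list (36.8%), beside 26.0% of protein-coding genes. Tnfrsf23 and Osbpl5 enter this count through 1 shared position. Some of the genes, such as Magi2, are long and so have wide windows, and length was not matched. By list the coding genes stood at 18.4%, 23.7%, 5.26% and 18.4% with hairpin 133 and 14 at 0 h, then at 24 h, where protein-coding genes stood at 12.7%, 11.0%, 10.5% and 9.72%. At 0 h, hairpins 133 and 14 had the same peak, chr7:143685621-143685771, in reach of both Tnfrsf23, a decoy death receptor gene, and Osbpl5, a lipid transfer gene, which lie beyond Phlda2 in the Kcnq1 domain. That position was not listed at 24 h, while Kcnq1, Kcnq1ot1 and Ascl2 had peaks at 24 h only and the other 5 genes of the Kcnq1 locus had none. Slc38a4, an amino acid transporter gene, had 2 peaks with each hairpin at 0 h and 0 at 24 h, and Cobl, an actin regulator next to Grb10, had 1 with each at 0 h and 0 at 24 h. Klhdc10 had 2 and 1 at 0 h. Tfpi2, a protease inhibitor gene near Calcr, had 1 region listed with hairpin 14 at both times and with hairpin 133 at 24 h. Smoc1 had 3 and 2 peaks at 0 h and 1 with hairpin 14 at 24 h, and Magi2, 1485 kb long, had 1 and 2 at 0 h and 2 with hairpin 14 at 24 h.

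Among 23 genes of imprint maintenance, hairpin 133 gave 1 with a peak at 0 h and 4 at 24 h, and hairpin 14 gave 1 at each time, making 6 over any list (26.1%), which is near the 26.0% of protein-coding genes. Arid4a, a chromatin factor gene, had 1 peak with hairpin 133 at each time, at different positions, and was the only gene of this list with peaks in 2 lists. The other genes with a peak had 1 each: Zfp57, Zfp445 (a second zinc finger gene that protects imprints) and Dnmt3a (a methyltransferase that sets them) with hairpin 133 at 24 h, Kdm1b (a histone demethylase) with hairpin 14 at 0 h, and Tet1 (which oxidises methylated cytosine) with hairpin 14 at 24 h.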

How the data were processed

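Methyl-CpG immunoprecipitation sequencing of 3 µg of genomic DNA, sonicated to about 150 bp and eluted from 60 µg MBD2-Fc with 1 M NaCl, is described in the labels' protocols. The authors deposited peak coordinates for each library (chromosome, start and end in base pairs, no score, p-value or other measure), and per the submitters' processing notes BWA, Picard, SAMtools and HOMER were used on mm10. Roles, settings, thresholds and any control of the peak calls are not given in the sources used here, and read depth is unknown. Peaks were 151 bp wide except 1. Coordinates were taken as 0-based and are printed 1-based.

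Peaks of the 4 lists were counted at 50 imprinted genes with Python 3.11.15, pandas 2.3.3, numpy 2.4.6 and scipy 1.17.1, and the counting was tested on simulated data. The promoter windows used include none on chromosome 18. Some other imprinted genes have none either, among them Kcnq1, Klf14, Rtl1, Trappc9 and Sgce. Peaks of all lists that overlapped by at least 1 bp were merged into regions. Peaks on contigs with no gene in the table (8) were assigned to none. No test was made, as each group is 1 library. The imprinted genes and both further lists (1 symbol, Zfp264, unmatched) were chosen with earlier results of these data known. Every imprinted gene with a peak is named, and of the further lists those with peaks in at least 2 lists, up to 8 a list. Genes of the maintenance list named with 1 peak, and the promoter windows with the most CpG, were chosen after their values were seen. Alternatives were the gene window, the assignment by centre, the overlap, recurrent peaks only, and leaving out a locus.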

Additional observations from a re-analysis of the deposited data

Results flagged for a closer look

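At Trappc9-Peg13-Kcnk9 the hairpins moved in opposite directions between 0 h and 24 h. Trappc9 went from 3 peaks to 1 with hairpin 133 (-2) and from 0 to 2 with hairpin 14, so the change with hairpin 133 minus that with hairpin 14 was -4. The 6 peaks are 6 regions of 1 list each, and over the same time both whole lists became shorter, from 3900 to 2960 and from 3437 to 2666 peaks. With 1 library a group this difference was not tested.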

How the results depend on the processing

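Of 66 values recomputed under another setting, 41 stayed within 1.5 times the reported count. Lists below are in the order hairpin 133 and 14 at 0 h, then at 24 h. With the gene body alone, 3 genes had a peak in the list of hairpin 133 at 0 h, and without peaks identical in both lists of a time also 3. With 50 kb on each side, 8, 16, 18 and 14 genes had a peak, the 0 h lists had 10 and 14 peaks, and 4 regions were listed with both hairpins at 0 h. Keeping peaks that overlap a peak of another list left 2, 2, 3 and 2 peaks and 3 genes in every list. Without Dlk1-Dio3, 2 and 3 genes at 0 h and 5 with hairpin 14 at 24 h had a peak, hairpin 14 at 0 h had 3 peaks, and 0 regions were listed with both hairpins at 0 h. Over the whole span of each locus, a setting chosen after seeing the data, hairpin 14 at 0 h had 11 peaks and hairpin 133 at 24 h had 18, and 2 regions were listed with both hairpins at 24 h. Assignment by peak centre, and an overlap of at least 50% or identical coordinates for shared regions, gave the reported counts. No paired test was made, as each hairpin had 1 library at each time and the labels give no replicate numbers that the groups share. No result comes from a test, and changes from 0 h to 24 h are given within each hairpin as counts. A stricter peak threshold could not be applied, since the lists hold no score. Depth is unknown, and with 6 to 9 peaks a list the counting intervals are wide.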

Other observations

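Between 10 and 50 kb from an imprinted gene lay a further 20 peaks. Below H13, the signal peptide peptidase gene, peaks of both hairpins at 0 h and of hairpin 14 at 24 h lay 42.1 kb away within 48 bp of each other. H19, the noncoding partner of Igf2, had peaks of hairpin 133 at 24 h at 22 kb and 45.8 kb on opposite sides and none in the other lists. Beyond Airn, the noncoding RNA that silences Igf2r, peaks of hairpin 14 at 0 h lay at 20.1 and 34.9 kb. Below Dlk1, both hairpins had the same region at 0 h, 23.3 kb away, and the peaks of hairpin 133 at 0 h and hairpin 14 at 24 h at 10.2 kb were offset by 8 bp. Between Copg2 and Klf14, peaks of hairpin 133 at 24 h and hairpin 14 at 0 h lay 24.7 and 25.1 kb from Copg2. Below Impact, peaks of both hairpins at 0 h lay 33.9 kb away and were offset by 19 bp.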
